A study of Mus musculus with 109 samples.

Results

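Of the 15973 genes in the deposited single-cell count table, 37 were cadherins or protocadherins, taken as every gene whose symbol begins with Cdh and a digit or with Pcdh. They comprised 21 non-clustered genes and 16 genes of the clustered protocadherins, which were Pcdhac1, 14 Pcdhb genes and Pcdhgc4. They were measured in 109 single cells prepared from P7 cerebella of C57BL/6 mice by Percoll density gradient centrifugation and captured with the C1 Fluidigm system, and the labels call these cells granule precursor cells. The series concerns Notch signaling between granule cell progenitors (GCPs), the dividing cells that produce the granule cells (GCs) of the cerebellum. The labels give no difference in genotype or treatment between cells. By the end of their sample titles the cells fell into 6 library groups, each with 18 or 19 of them, and nothing in the labels says that these groups were separate animals or preparations, so p-values below measure the spread between library groups, which may be technical.

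Cadherins are calcium-dependent adhesion proteins. The classical cadherins join like cells through their outermost extracellular repeat and hold the actin cytoskeleton through catenins, and type I and type II members differ in the strength and selectivity of this binding. The non-clustered delta protocadherins adhere more weakly and are known for roles in axon growth and neuronal migration. The clustered protocadherins lie in the Pcdha, Pcdhb and Pcdhg arrays, in which each variable exon has its own promoter. A neuron switches on a small choice of these promoters, while the C-type genes at the ends of the Pcdha and Pcdhg arrays, among them Pcdhac1 and Pcdhgc4, are used more evenly, and the resulting mix of proteins gives each neuron an identity on its surface.

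Values are given in CPM, that is, the counts of a gene per 1000000 counts of its cell, and a cell is said to hold a gene from 1 count, or from 10 CPM where stated. Cells were compared by Mki67, which marks dividing cells. Cells with at least 100 CPM of Mki67 formed the Mki67-high class, with 32 cells from 132 to 4258 CPM of Mki67. Cells with less than 10 CPM formed the Mki67-low class, with 75 cells of at most 9.27 CPM, of which 18 had no Mki67 count. The limits left out 2 cells, at 21.3 and 66.4 CPM. The 6 library groups held 3 to 8 Mki67-high and 10 to 15 Mki67-low cells each.

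Total counts per cell ran from 15071 to 8616017, and 1 count was worth 0.277 CPM at the median depth. Median totals were 4157700 in Mki67-high and 3580460 in Mki67-low cells, with medians of 4967.5 and 4193 genes detected. At 50 CPM or more, at least 1 of 11 markers of the granule cell lineage was found in 108 of the 109 cells. At least 3 were found in 96 cells and at least 5 in 63. Of 12 astroglial markers, at least 1 was found in 75 cells and at least 3 in 10. At least 5 were found in 7 cells, 4 of them Mki67-high and 3 Mki67-low. Single markers of other types were also common, in 66 cells for GABAergic interneurons, 46 for the oligodendrocyte lineage and 25 for meningeal fibroblasts. They were found in 16 cells for Purkinje cells, 14 for unipolar brush cells, 5 for microglia and 1 for vascular cells. At least 3 markers of the list were found in 6 cells for the oligodendrocyte lineage, in 3 for microglia, in 3 for GABAergic interneurons, in 1 for meningeal fibroblasts, and in 0 for vascular cells, for Purkinje cells and for unipolar brush cells, while no marker of ependyma and choroid plexus was listed. With the counts of all cells of a class and library group added to 1 sum each, the lowest, median and highest of the 6 summed levels of the astroglial markers ran from 349 through 1159 to 2729 CPM in the Mki67-high and from 369 through 903 to 4234 CPM in the Mki67-low sums, and those of the 7 listed microglial markers from 0 through 51.2 to 211 CPM and from 0 through 0.981 to 7.93 CPM. The part of these cells in the results was not tested except where values without the astroglial cells are given. The cells of unusual depth were 1 cell with 15071 counts, which lay between the classes, and 2 Mki67-high cells with 13533 and 12684 genes, which were also among the 7 astroglial cells.

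Cells held few members. The median cell had a count of 6 of the 37 genes, with a range from 1 to 32, and 2 of them at 10 CPM or more, with a range from 0 to 14. The cell with 32 members was the cell with 13533 genes. Apart from Cdh2 and Pcdhgc4, which had counts in 83 and 99 of the 109 cells, each member was at 0 in most cells and was found in at most 42, as the plot of CPM by cell shows. For 24 of the 37 members, a single cell held more than 50% of the CPM summed over all cells, a share of 64.9% of the members, which compares with 35.2% of all 15973 genes. Among genes with a count in 10 to 25 cells, the median share of the strongest cell was 75.4% for the 17 members and 46.7% for all 4161 genes. Averages over cells therefore rest on few cells for most members, and the numbers of cells that held a member are given with its values.

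**Figure D1:**
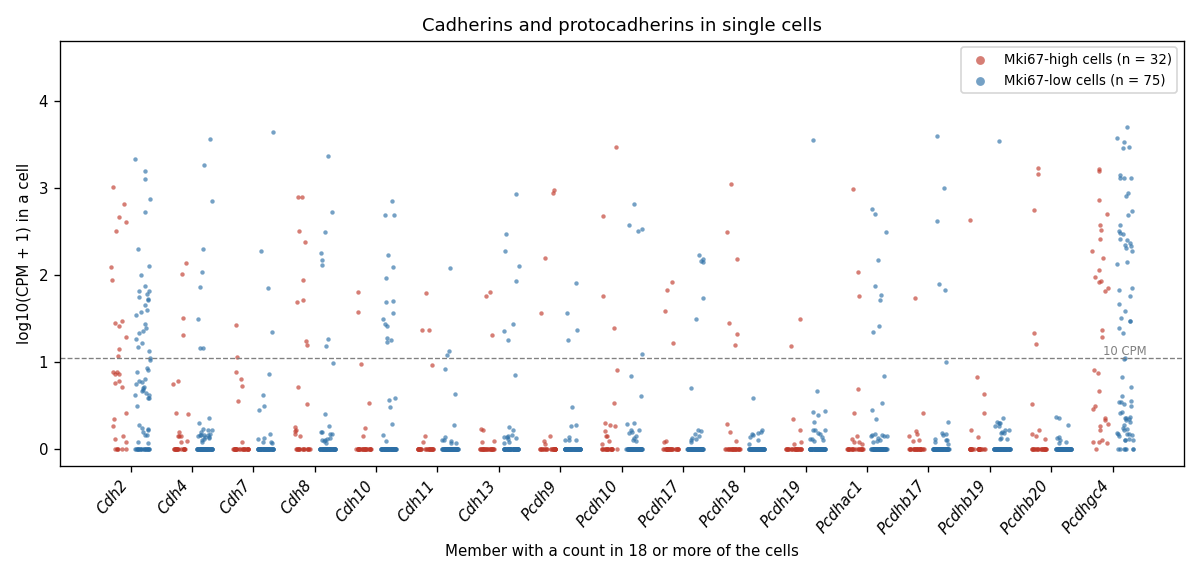
CPM of the members with a count in 18 or more cells, on a log10(CPM + 1) axis, with 1 point per cell, the 32 Mki67-high cells in red and the 75 Mki67-low cells in blue, spread sideways for legibility, and a dashed line at 10 CPM. Cdh2 and Pcdhgc4 have points at all heights, while the other genes lie at or near 0 in most cells and reach between 119.7 and 4468 CPM in their strongest cell.

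Cdh2 (N-cadherin, the main classical cadherin of neurons and neural progenitors) was the non-clustered member found most often. It had a count in 83 of 109 cells (76.1%, Wilson 95% interval 67.3 to 83.2%) and 10 CPM or more in 43 cells of all 6 library groups, with up to 2142 CPM in a cell. It lies at chr18:16588877-16809246 on the minus strand of mm10. Counts were found in 26 of 32 Mki67-high cells (81.2%) and in 55 of 75 Mki67-low cells (73.3%). For each class and library group the counts of all its cells were added to a sum, and the lowest, median and highest of the 6 sums were 3.03, 77.6 and 229 CPM in Mki67-high and 6.92, 46.1 and 245 CPM in Mki67-low cells. The classes covered much the same range, and the log2 fold change, Mki67-high over Mki67-low, was -0.03 (SE 1.21, edgeR adjusted p = 0.997). Its sign depended on the scaling, since it was 0.25 with the RLE factors in place of TMM.

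Cdh4 (R-cadherin, a type I classical cadherin that can also bind N-cadherin) had a count in 42 cells but 10 CPM or more in 14. A single Mki67-low cell with 3694 CPM held 52.2% of its summed CPM. Sums ran from 0.029 through a median of 0.929 to 31.0 CPM in Mki67-high and from 0 through 31.2 to 286 CPM in Mki67-low cells. The high values lay in the Mki67-low class, in which 5 of 6 library groups exceeded their Mki67-high partner, yet the ranges overlapped and the log2 fold change of -3.47 (SE 2.06) had an edgeR adjusted p of 0.736. By numbers of cells the classes were close, with 14 of 32 Mki67-high and 27 of 75 Mki67-low cells. The other type I members, Cdh1 (E-cadherin of epithelia) and Cdh3 (P-cadherin), had 1 to 4 counts in 6 and 3 cells and stayed below 0.4 CPM.

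Of the type II classical cadherins, Cdh8 was found most often. It had a count in 39 cells and 10 CPM or more in 18 cells of 5 library groups, with up to 2338 CPM. Of the Mki67-high cells 16 of 32 (50%, interval 33.6 to 66.4%) held it, against 21 of 75 Mki67-low cells (28.0%, interval 19.1 to 39.0%). The share was higher in the Mki67-high cells of each of the 6 library groups, where it ran from 25 through a median of 45 to 100%, against 0 through 31.5 to 50% in the Mki67-low cells. How many of all genes did so was not counted, and Mki67-high cells had more genes detected, with medians of 4967.5 and 4193. Without the astroglial cells and those of unusual depth the counts were 13 of 28 and 21 of 72 cells. The order was not repeated in the sums, of which the Mki67-high one was higher in 3 library groups and lower in 3. The levels overlapped widely, since the sums ran from 0.789 through 26.7 to 185 CPM in Mki67-high and from 0 through 21.1 to 124 CPM in Mki67-low cells, and the log2 fold change was 0.52 (SE 1.67, edgeR adjusted p = 0.966). It turned to -0.63 without library group 5, and was 9.35 (SE 2.83, unadjusted p = 0.00283, edgeR adjusted p = 0.141) where the Mki67-low class was limited to cells with no Mki67 count.

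Cdh10, a type II cadherin of neurons, showed the opposite order by numbers of cells. It had a count in 29 cells and, where it was present, mostly at a sizeable level, since 19 cells of all 6 groups had 10 CPM or more. These were 2 of 32 Mki67-high (6.25%) and 15 of 75 Mki67-low cells (20.0%), together with the 2 cells between the classes. The share of cells with a count was lower in Mki67-high cells in 5 of 6 library groups. Sums ran from 0.075 through 0.762 to 20.2 CPM in Mki67-high and from 0 through 11.9 to 81.8 CPM in Mki67-low cells. The Mki67-high sum was the higher one in 3 library groups and the lower one in 3, so the order was not repeated in the sums. The log2 fold change was -3.03 (SE 1.82, edgeR adjusted p = 0.745). It was larger in size without the astroglial cells, at -7.32 (SE 2.31, unadjusted p = 0.00579, edgeR adjusted p = 0.338), and without the cells of unusual depth, at -6.45 (SE 2.15, unadjusted p = 0.00816, edgeR adjusted p = 0.397). With no Mki67 count in the Mki67-low class it was -5.28 (edgeR adjusted p = 0.420).

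Cdh7, which in the cerebellum is best known from granule neurons and the fibers that contact them, had a count in 23 cells and 10 CPM or more in 7. The strongest cell, a Mki67-low cell of library group 2, had 4468 CPM, 89.0% of all that was measured, and the same cell also held the highest Cdh8 and Pcdhb17 values. In the sums it ran from 0 through 0.619 to 5.68 CPM in Mki67-high and from 0 through 3.23 to 195 CPM in Mki67-low cells. Its log2 fold change of -4.81 (SE 2.30) had an unadjusted edgeR p of 0.0522 and an adjusted p of 0.677. Without library group 2, which holds the strongest cell, it was -1.53 (SE 1.92, edgeR adjusted p = 0.905), and without the astroglial cells -6.48 (edgeR adjusted p = 0.486).

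Cdh20, a further type II cadherin, had a count in 14 cells, 9 of 32 Mki67-high (28.1%, interval 15.6 to 45.4%) and 3 of 75 Mki67-low (4%, interval 1.37 to 11.1%). It reached 10 CPM in 5 Mki67-high cells and in 1 Mki67-low cell, with a highest value of 190 CPM. The share was higher in the Mki67-high cells of 3 library groups and lower in those of 2, so the pooled shares were not repeated across groups. Of the 7 astroglial cells 4 held it, and without these and the cells of unusual depth the counts were 6 of 28 and 2 of 72 cells. Its sums ran from 0 through 1.58 to 50.7 CPM in Mki67-high and from 0 through 0.0095 to 2.23 CPM in Mki67-low cells. The gene was too low in most sums to enter the test.

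Cdh11, a type II cadherin also common in mesenchymal cells, had a count in 18 cells and 10 CPM or more in 6, and 119.7 CPM at most. Its sums ran from 0 through 1.68 to 20.0 CPM in Mki67-high and from 0.015 through 0.552 to 8.79 CPM in Mki67-low cells. Its strongest cell was an astroglial cell, and the highest value outside the astroglial cells and those of unusual depth was 22.6 CPM. With overlapping sums, its log2 fold change was 0.84 (SE 1.69, edgeR adjusted p = 0.935). The same astroglial cell, of library group 6, held 98.1% of the summed CPM of Cdh18, a type II cadherin of the central nervous system, which had a count in 11 cells and whose highest value elsewhere was 16.3 CPM. Cdh24 was found in 7 cells, with 98.0% of its CPM in 1 Mki67-low cell of library group 3 at 451 CPM.

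Cdh13 (T-cadherin), which is held to the membrane by a lipid anchor and lacks the part that binds catenins, had a count in 26 cells and 10 CPM or more in 11 cells, spread over all 6 library groups. The 6 sums ran from 0 through 2.12 to 20.5 CPM in Mki67-high and from 3.74 through 15.3 to 44.1 CPM in Mki67-low cells. All 6 Mki67-low sums held the gene, whereas 2 Mki67-high sums, of 4 cells each, did not. By library group, the Mki67-high sum was higher in 3 and lower in 3. The log2 fold change was -1.40 (SE 1.69, edgeR adjusted p = 0.887). The counts of cells were alike, with 7 of 32 and 19 of 75.

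Among the delta-1 protocadherins, Pcdh9 had a count in 18 cells and 10 CPM or more in 8, with up to 953 CPM in a Mki67-high cell. All 7 astroglial cells held Pcdh9, against 11 of the other 102 cells. Pcdh9 sums ran from 0 through 8.06 to 171 CPM in Mki67-high and from 0 through 1.02 to 5.16 CPM in Mki67-low cells. Its log2 fold change of 4.39 (SE 2.41) was the highest among the members tested, with an unadjusted edgeR p of 0.0872 and an adjusted p of 0.715. The 3 strongest cells held 90.9% of the summed CPM of Pcdh9. They were all Mki67-high, at 953, 869 and 157 CPM, and of these the cell at 157 CPM alone was astroglial. Pcdh9 was too low to be tested without the astroglial cells, so their part in its log2 fold change was not tested.

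Pcdh11x, on the X chromosome, had a count in 12 cells of 3 library groups, and a single Mki67-low cell of library group 3 with 4699 CPM held 96.0% of its summed CPM. Pcdh7 had a count in 10 cells and 168 CPM at most, and 2235 of its 10604 annotated exonic bases overlap a gene on the opposite strand, so its reads may be shared with that gene. Pcdh1 had a count in 7 cells, 4 of them astroglial, and 28.8 CPM at most. None of these 3 genes was tested, because too few sums held them.

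Pcdh10, a delta-2 protocadherin known to recruit the WAVE complex to cell contacts, had a count in 31 cells and 10 CPM or more in 9. Its strongest cell was a Mki67-high cell of library group 3 with 3003 CPM and 56.5% of the summed CPM. Counts were found in 14 of 32 Mki67-high (43.8%) and 17 of 75 Mki67-low cells (22.7%), and in 6 of the 7 astroglial cells. The Pcdh10 sums ran from 0 through 6.69 to 395 CPM in Mki67-high and from 0.100 through 10.5 to 62.7 CPM in Mki67-low cells. The log2 fold change was 1.74 (SE 1.997, edgeR adjusted p = 0.884), although the Mki67-high sum was the lower one in 4 of 6 library groups.

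Pcdh17, another delta-2 protocadherin with known roles in axon extension and synapses, was more evenly spread. It had a count in 22 cells and 10 CPM or more in 10 cells of 5 library groups, and the strongest cell, at 169 CPM, held 18.7% of its summed CPM, the smallest such share among the non-clustered members. Between library groups, sums ran from 0 through 3.45 to 13.9 CPM in Mki67-high and from 0 through 4.33 to 30.2 CPM in Mki67-low cells. For Pcdh17 the log2 fold change was -1.03 (SE 1.96, edgeR adjusted p = 0.929).

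Pcdh18 was one of 2 members that reached 10 CPM in at least 5 Mki67-high cells and in no Mki67-low cell, a rule chosen after seeing the values and met by 64 of the 15972 genes other than Mki67 (0.401%). It lies at chr3:49743296-49757325 on the minus strand of mm10. It had 10 CPM or more in 6 of 32 Mki67-high cells (18.8%) and in 0 of 75 Mki67-low cells, where a count of 0 sets an upper limit of 4%. Low counts were present in both classes, since 9 Mki67-high and 9 Mki67-low cells had at least 1 count. Its sums ran from 0 through 3.61 to 497 CPM in Mki67-high and from 0 through 0.0095 to 0.196 CPM in Mki67-low cells. The Mki67-high sum was the higher one in 5 library groups and both sums were 0 in the other. A single cell with 1114 CPM held 67.5% of the summed CPM. The gene did not pass the filter on low counts of the main fit. Fitted without that filter, its log2 fold change was 10.6 (SE 2.84, unadjusted p = 0.00145), with an edgeR adjusted p of 0.180, and DESeq2 gave it no p-value. Pcdh18 was picked for this difference in the same values, so the p-value is no separate support for it. Without the astroglial cells and those of unusual depth, counts were found in 7 of 28 and 9 of 72 cells.

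Pcdh19, the X-linked delta-2 protocadherin that is mutated in an epilepsy of girls, had a count in 22 cells but 10 CPM or more in 3. A single Mki67-low cell of library group 1 had 3609 CPM and held 98.4% of the summed CPM, and the share of cells with a count in a library group reached 86.7% for the Mki67-low and 100% for the Mki67-high cells. Pcdh20 was found in 4 cells. Of these, 3 were Mki67-high and 1 was Mki67-low, and without the astroglial cells and those of unusual depth 0 of 28 and 1 of 72 cells held it. The 14 non-clustered genes of the same families that were not listed in the table, among them Cdh5, Cdh6, Cdh15 and Pcdh8, were not analysed here.

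In the clustered arrays, the 2 C-type genes were found in more cells than any of the 14 listed Pcdhb genes. No other Pcdha or Pcdhg gene was listed, so C-type genes could not be compared with other genes of their own arrays. Pcdhgc4 had a count in 99 of 109 cells (90.8%, interval 83.9 to 94.9%) and 10 CPM or more in 54 cells of all 6 library groups, more than any other member, with up to 5013 CPM. Per kilobase of annotated exon, its mean over cells was 59.3 CPM, against 12.5 CPM for Cdh2, 11.1 CPM for Pcdhb17 and 10.5 CPM for Pcdhb7. These means rest on 54, 43, 6 and 4 cells at 10 CPM or more. Not scaled to length, leaving out the strongest cell took the mean from 332 to 289 CPM for Pcdhgc4 and from 101 to 81.7 CPM for Cdh2, but from 51.9 to 15.2 CPM for Pcdhb17 and from 36.6 to 8.92 CPM for Pcdhb7, of which 1 cell held 71.0 and 75.9%. It lies at chr18:37815079-37841873 on the plus strand of mm10. Of its 5596 annotated exonic bases, 2119 are shared with 25 other genes, since the genes of an array splice to common constant exons. Whether reads of these constant exons entered this row is not known, since the annotation used for counting is not given. If they did, they may come from other Pcdhg genes. If they did not, only the 3477 unshared bases were counted, and the value per kilobase, which divides by all 5596, is too low.

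Pcdhgc4 was found in 31 of 32 Mki67-high and 68 of 75 Mki67-low cells. The lowest, median and highest sums were 2.88, 167 and 437 CPM in Mki67-high and 134, 340 and 1144 CPM in Mki67-low cells. The Mki67-high sum was the lower one in 5 of 6 library groups, and the log2 fold change was -1.49 (SE 0.98, unadjusted p = 0.148), with an edgeR adjusted p of 0.764, which did not pass the threshold. Pcdhac1 had a count in 34 cells and 10 CPM or more in 12, with up to 984 CPM, and 2860 of its 5419 exonic bases are shared with 13 other genes. Its sums ran from 0 through 0.423 to 139 CPM in Mki67-high and from 0.196 through 12.6 to 120 CPM in Mki67-low cells. The log2 fold change of -0.42 (SE 1.91, edgeR adjusted p = 0.985) changed sign without library group 5 (1.53) and without the astroglial cells (0.31).

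The 14 Pcdhb genes span chr18:37333921-37524479 of mm10, each without the constant exons of the other arrays, so that their rows can be told from one another. Between 1.80 and 11.3% of the stretches of 50 bases in their exons also occur in another gene, and Pcdhb21 and Pcdhb22 share 455 annotated bases. The annotation has 13 Pcdha, 22 Pcdhb and 22 Pcdhg symbols, and the 41 that were not listed were not analysed here, so the numbers per cell below cover the listed genes alone.

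The Pcdhb genes were held by few cells each. At a sizeable level most cells held none, and those with any mostly held 1. At 10 CPM or more, 77 of 109 cells had no Pcdhb gene, 26 had 1 and 6 had 2. Of the 32 cells with any, 26 therefore held a single gene (81.2%, interval 64.7 to 91.1%). The mean over all cells was 0.349 Pcdhb genes per cell. At so low a mean, these numbers alone do not show that a cell is limited to 1 gene. Whether fewer cells held 2 genes than independent detection would give was not tested. In these 32 cells the strongest gene had from 11.7 to 4016 CPM with a median of 255 CPM and made up a median of 99.98% of the Pcdhb CPM, and in 27 cells it made up more than 90%. Without the astroglial cells and those of unusual depth, 23 of 27 cells held a single gene, and at a minimum of 50 CPM 25 of 27 did. The plot of Pcdhb genes by cell shows each of these cells with its genes.

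**Figure D2:**
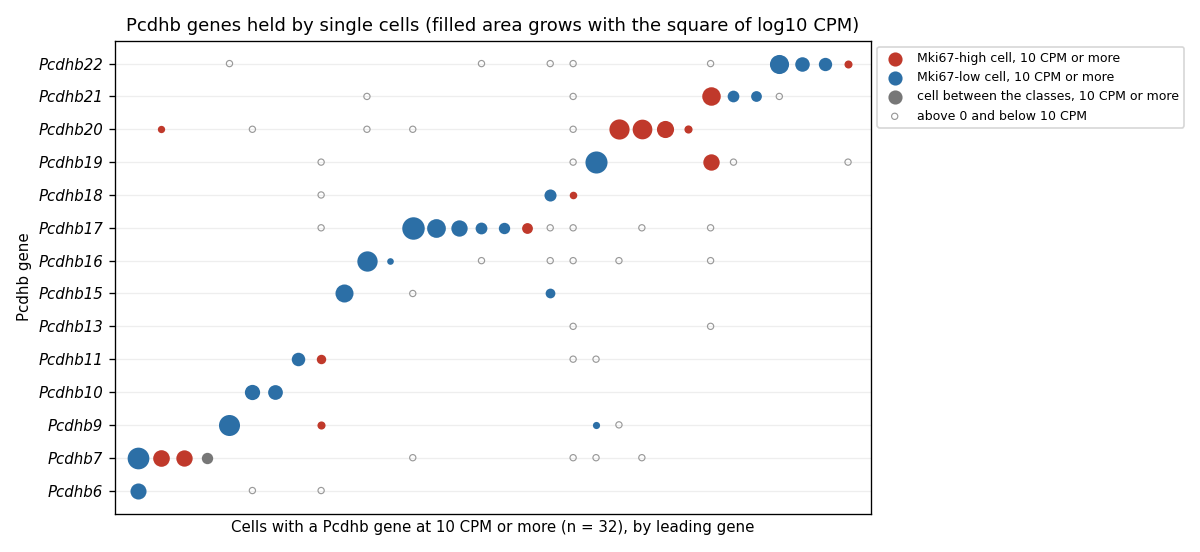
The 32 cells with a Pcdhb gene at 10 CPM or more, 1 column per cell ordered by its strongest gene, against the 14 Pcdhb genes in cluster order. Filled circles are 10 CPM or more, with an area that grows with the square of log10 CPM, in red for Mki67-high, blue for Mki67-low and gray for the cell between the classes, and open circles are values above 0 and below 10 CPM. In 26 columns there is 1 filled circle and in 6 there are 2.

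The Pcdhb genes held at 10 CPM or more differed between cells. The 32 cells held 17 different sets of genes at 10 CPM or more, of which 10 sets were seen in 1 cell each. The most common set was Pcdhb17 alone, in 6 cells. Of the 91 pairs of Pcdhb genes, 6 occurred together in a cell, each in 1 cell, and 1 of the 13 pairs of listed neighbours did so, Pcdhb6 with Pcdhb7. In that Mki67-low cell of library group 2, Pcdhb7 was at 3027 CPM and Pcdhb6 at 377 CPM. In another Mki67-low cell, of library group 1, Pcdhb19 was at 3475 CPM and Pcdhb9 at 14.2 CPM. The most even pair was in a Mki67-high cell with 12684 genes, in which Pcdhb11 was at 32.7 CPM and Pcdhb9 at 20.0 CPM. Of the 49 pairs of cells that had the same gene at 10 CPM or more, 7 were within a library group and 42 were between groups. The numbers that rare detection alone would give were not computed for these sets and pairs. A choice of genes by the cells was therefore not tested.

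Pcdhgc4 at 10 CPM or more was found in 17 of 32 cells with and in 37 of 77 cells without such a gene (53.1 and 48.1%). For Pcdhac1 these numbers were 5 of 32 and 7 of 77 cells.

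Of single Pcdhb genes, Pcdhb17 was found in 23 cells and had 10 CPM or more in 6, with values up to 4016 CPM. Sums ran from 0 through 0.107 to 7.27 CPM in Mki67-high and from 0 through 5.97 to 175 CPM in Mki67-low cells, and both classes had groups without it. Its log2 fold change of -5.53 (SE 2.55) was the lowest among the members tested and the only one below 0.05 before adjustment (p = 0.0453), with an edgeR adjusted p of 0.674. Without library group 2 it was -3.70 (SE 2.59, edgeR adjusted p = 0.806). Pcdhb7 had a count in 16 cells and 10 CPM or more in 4, with sums from 0 through 0.471 to 75.2 CPM in Mki67-high and from 0 through 0.021 to 265 CPM in Mki67-low cells. Its log2 fold change of -1.62 (SE 2.50, edgeR adjusted p = 0.915) was set beside a highest sum, in library group 2, that includes the cell with Pcdhb6 named above. Pcdhb19 had a count in 21 cells but 10 CPM or more in 2, and Pcdhb21 a count in 15 and 10 CPM or more in 3.

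Pcdhb20 was the other member with 10 CPM or more in at least 5 Mki67-high and in no Mki67-low cells. It had a count in 18 cells, 10 of 32 Mki67-high (31.2%, interval 17.95 to 48.6%) and 8 of 75 Mki67-low (10.7%, interval 5.50 to 19.7%), and 10 CPM or more in 5 Mki67-high cells of 4 library groups. Its sums ran from 0 through 3.97 to 396 CPM in Mki67-high and from 0 through 0 to 0.204 CPM in Mki67-low cells, and the Mki67-high sum was the higher one in 4 library groups, the lower one in 0 and equal in the other groups. The 3 strongest cells, all Mki67-high, had 1722, 1444 and 559 CPM and held 98.8% of its summed CPM. Pcdhb20 did not pass the filter of the main fit. Fitted without the filter its log2 fold change was 10.8 (SE 2.96, unadjusted p = 0.00178, edgeR adjusted p = 0.180), and in DESeq2 on the same sums it was 11.2 (SE 2.49, adjusted p = 0.000469). Pcdhb20 was picked for this difference in the same values, so these p-values are no separate support for it. With Mki67-low sums near 0 the size of these fold changes depends on the fit and is no bound. None of its 5 cells at 10 CPM or more was astroglial or of unusual depth.

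**Figure D3:**
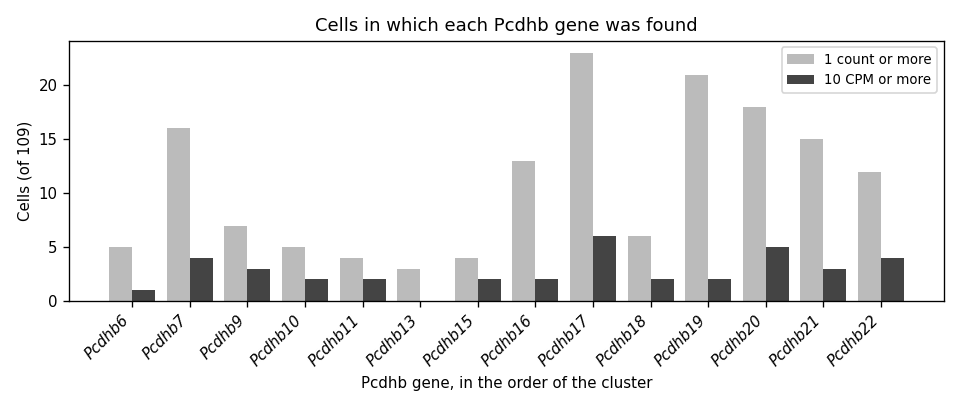
Number of the 109 cells with each Pcdhb gene, at 1 count or more in light gray and at 10 CPM or more in dark gray, with the genes in cluster order from Pcdhb6 to Pcdhb22. Pcdhb17 leads at both minimums, with 23 and 6 cells, and Pcdhb13 has 3 and 0 cells.

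At 1 count or more the picture was less sparse. The median cell then held 1 Pcdhb gene, 24 cells held none, 52 held 1, 33 held 2 or more and the most was 10, in the cell with 13533 genes. Over all 16 clustered genes the median was 2 per cell, with a range from 1 to 12, and at 10 CPM or more it was 1, with a range from 0 to 4. At 10 CPM, 37 cells held no clustered gene, 48 held 1, 17 held 2, 6 held 3 and 1 held 4. With each cell thinned to the same 1110182 counts, which left out the cell with 15071 counts, the medians were 2 clustered genes and 1 Pcdhb gene at 1 count or more.

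Most of the low counts lay in library groups with a strong cell of the same gene. Of the Pcdhb values below 5 counts, 16.9% were 1 to 4 rather than 0 where another cell of the library group had 100 or more counts of the gene, against 1.21% elsewhere. Of the 93 Pcdhb values of 1 to 4 counts, 81 lay beside such a cell. The same shares were 23.6 and 6.00% over all genes of the table and 17.5 and 3.70% over the non-clustered members. The direction was thus not particular to the Pcdhb genes, but their share without a strong cell was lower. The source of the pattern was not tested. The numbers at 10 CPM are therefore given before those at 1 count. The 7 listed genes from Pcdhb16 to Pcdhb22 were found in a median of 15 cells and the 7 from Pcdhb6 to Pcdhb15 in a median of 5 at 1 count, but in medians of 3 and 2 cells at 10 CPM, a division chosen after seeing the values, and the first also had the longer exons, with medians of 5041 and 3501 bases.

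The number of Pcdhb genes per cell overlapped between the Mki67 classes, and no test was made of it. At 10 CPM or more, 11 of 32 Mki67-high (34.4%, interval 20.4 to 51.7%) and 20 of 75 Mki67-low cells (26.7%, interval 17.98 to 37.6%) held at least 1, and 8 and 17 of these held a single gene. The mean number per cell in the library groups ran from 0 through a median of 0.354 to 0.8 in Mki67-high and from 0.2 through 0.283 to 0.467 in Mki67-low cells, and the mean was higher in Mki67-high cells in 3 library groups and lower in 3. Over all 16 clustered genes at 1 count, both classes had a median of 2.

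**Figure D4:**
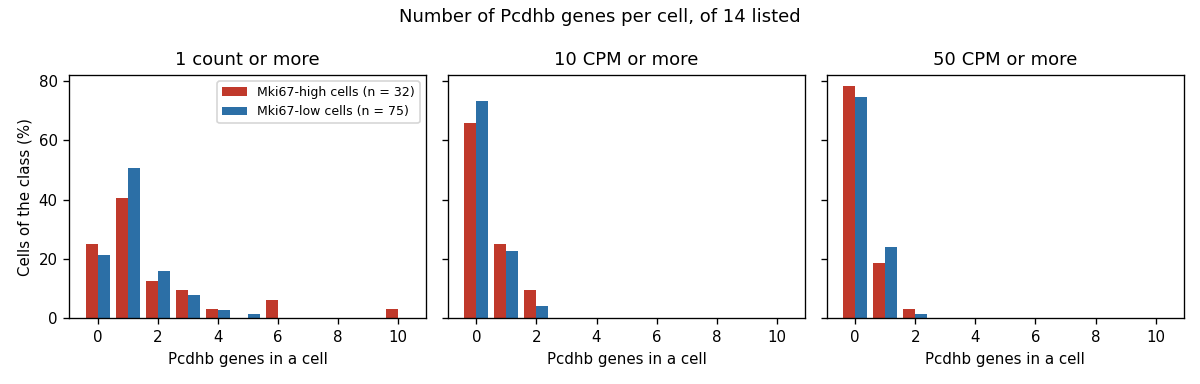
Percentage of the 32 Mki67-high cells (red) and of the 75 Mki67-low cells (blue) that held a given number of the 14 listed Pcdhb genes, at 1 count or more (left), 10 CPM or more (middle) and 50 CPM or more (right). At 10 CPM or more no cell of either class exceeds 2 genes.

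In the test across all genes, 9084 passed the filter and 2 were called at an adjusted p below 0.01 (0.022%, edgeR quasi-likelihood test on the sums), Tacc3 and Cdc20, which both act in mitosis. Of the 37 members 14 passed the filter and 0 were called. At an unadjusted p below 0.05 there were 666 genes (7.33%) and 1 of the 14 members, Pcdhb17, which is about the share of all genes. Of the 14 members 4 were higher and 10 lower in Mki67-high cells, with a median log2 fold change of -1.22, against -0.18 for all genes tested. This balance depended on the setting, since limma gave 6 higher and 8 lower with a median of -0.03, against 0.43 for all genes, and edgeR gave medians of -0.60 without the cells of unusual depth, against 0.04, and of 0.52 over the 7 members tested with no Mki67 count in the Mki67-low class, against 0.14. For each of the 37 members the sums of the classes overlapped. The spread between sums of the same class was wide, with a biological coefficient of variation of 172%, and the SEs of the members, from 0.98 to 2.55 on the log2 scale, leave differences of several fold undetectable at this number of library groups.

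**Figure D5:**
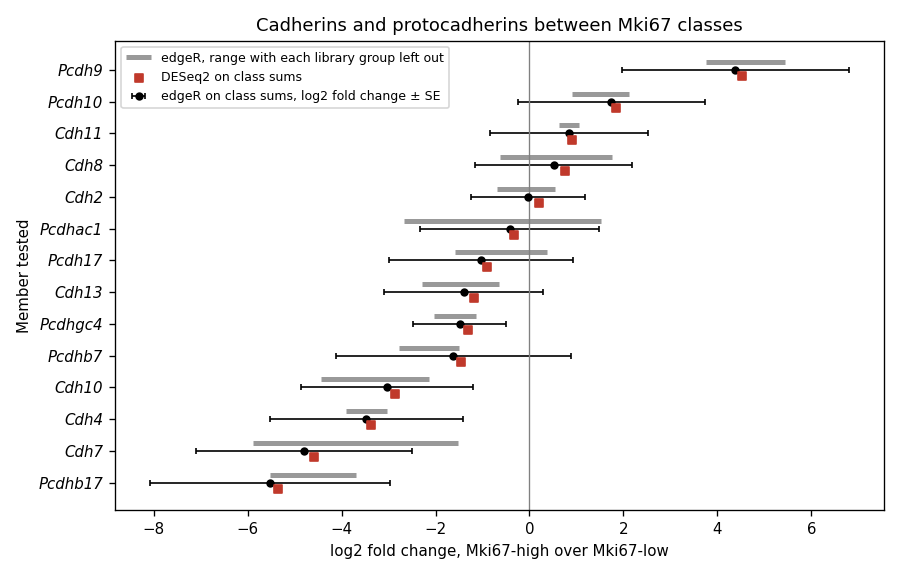
Log2 fold change, Mki67-high over Mki67-low, of the 14 members tested. Black points with bars give the edgeR estimate and its SE, red squares DESeq2 on the same sums, and gray bars the range of the edgeR estimates from fits that omit 1 library group, where a gene could then be fitted. The estimates run from -5.53 (Pcdhb17) to 4.39 (Pcdh9), and the gray bars of Cdh2, Cdh8, Pcdh17 and Pcdhac1 cross 0.

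Other tools gave more calls over all genes and, with 1 exception, none among the members that they could test. DESeq2 called 376 of 10810 genes with an adjusted p (3.48%) and 1 member, Pcdhb20. Many members, among them Cdh7, Pcdh18 and Pcdhb16, got no adjusted p in DESeq2 and so could not be called. A limma fit of the mean log2(CPM + 1) of the cells, which weights strong cells less, called 76 genes (0.837%) and 0 members. Unadjusted p-values below 0.05 in limma were found for 1407 genes (15.5%) and 0 of the 14 members.

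The genes that work with the cadherins were read from the same fit, and 0 of each list were called. Of the 7 catenins tested, which link classical cadherins to actin, 3 were higher and 4 lower in Mki67-high cells, while limma on the mean log2(CPM + 1) gave 5 higher and 2 lower. Ctnnb1 (beta-catenin) had a log2 fold change of 1.54 (SE 0.78), Ctnna2 (alpha-N-catenin of neurons) of -2.78 (SE 1.56) and Ctnnd2 (delta-catenin) of -0.75 (SE 0.90), with edgeR adjusted p-values of 0.692, 0.724 and 0.887. In limma, Ctnnb1 was at 3.67 (unadjusted p = 0.000313, adjusted p = 0.0237), above the threshold of 0.01, and Ctnnd2 turned to 0.71 (adjusted p = 0.703). Of the 10 further members of the cadherin superfamily tested, 5 were higher and 5 lower (6 and 4 in limma), among them the receptor Ret at -6.37 (SE 2.39), the protocadherin Dchs1 at -4.04 (SE 1.94) and Fat3 at 2.81 (SE 2.31), with adjusted p-values of 0.571, 0.677 and 0.817.

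The list of regulators of clustered protocadherin choice holds CTCF and cohesin, which loop promoters to enhancers, and enzymes and factors of DNA methylation and silencing. All 14 of them that were tested had a positive log2 fold change, with a median of 0.85, where 45.2% of all genes tested did. In the limma fit all 14 were positive too, where 75.6% of all genes were, and 10 of the 14 had an unadjusted p below 0.05, against 15.5% of all genes. None passed the adjusted threshold of 0.01 in limma, where Smchd1, a silencing factor, was at 2.95 (unadjusted p = 0.00066, adjusted p = 0.0379) and the DNA methyltransferase Dnmt1 at 2.59 (unadjusted p = 0.000947, adjusted p = 0.0483), both named after their values were seen. The smallest p-values in edgeR were those of Setdb1, a histone methyltransferase, at 3.50 (SE 1.31, unadjusted p = 0.0163, edgeR adjusted p = 0.571; limma unadjusted p = 0.233), of the cohesin subunit Rad21 at 1.85 (SE 0.94, adjusted p = 0.694) and of the cohesin partner Pds5a at 1.42 (SE 1.10, adjusted p = 0.805). These proteins also serve chromosome cohesion and DNA replication in dividing cells, the part of which was not tested.

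Of 17 tested genes whose products bind or cut cadherins and protocadherins, 6 were higher and 11 lower in edgeR, and 10 were higher and 7 lower in limma. Ptprs, a receptor tyrosine phosphatase found in all 109 cells, had sums from 1378 through 1897 to 3728 CPM in Mki67-high and from 2215 through 3910 to 6383 CPM in Mki67-low cells, which overlapped. Its log2 fold change was -0.90 (SE 0.38, edgeR adjusted p = 0.652). Cyfip2, a subunit of the WAVE complex, was at -1.92 (SE 0.99, adjusted p = 0.699) and Adam10, the protease that sheds cadherin ectodomains, at -1.46 (SE 0.82, adjusted p = 0.725).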

How the data were processed

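Cells were prepared from P7 cerebella and sequenced singly. Per the labels and the paper's methods, the authors aligned reads to mm10 with STAR 2.4.1d, used HTSeq-count 0.6.1 to count the reads of each gene, and deposited these raw counts. Which annotation and strand setting were used for counting is not given in the sources used here, so reads of genes that overlap on opposite strands may be shared. Columns were matched to the 109 samples by their labels, and library groups 1 to 6 follow the last part of the sample titles. Each of the 15973 listed genes had a count in at least 3 cells.

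CPM was computed from each cell's total. Positions and shared exons come from the GENCODE annotation of GRCm38, the genome of mm10, and exonic stretches of 50 bases were compared between genes. Percentages of cells have Wilson intervals at 95% confidence, and a share of 0 is given the limit that 3 cells would allow. As the libraries have no molecular identifiers, intervals and limits cover counting error only. Total counts per cell ran from 15071 to 8616017, and sums held 9376998 to 66286508 counts.

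For tests, the raw counts of all cells of a class in a library group were added, which gave 12 sums. Genes passing filterByExpr were scaled by TMM factors and tested between classes by quasi-likelihood in edgeR 4.0.16 with R 4.3.3, with Benjamini-Hochberg adjustment over all genes tested and a threshold of 0.01, that of the study. Mki67, which defines the classes, was not tested. The steps were tested on simulated data. DESeq2 1.42.0 on the sums, limma 3.58.1 on mean log2(CPM + 1), other normalization, filters, class limits and cell selections, thinning of the cells, a library group block and the omission of each library group were alternatives. All cells were kept in the main results. The doublet rate is unknown, and no doublet caller was run.

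Named are the non-clustered members with a count in at least 10 cells, in each cluster the 5 genes found in the most cells and the C-type genes, members called, and up to 3 genes with the smallest p-values per pathway list. Other members were named after their values were seen. The members, the lists and the classes were chosen with earlier results of these data known. No sequence was printed.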

Additional observations from a re-analysis of the deposited data

Results flagged for a closer look

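For 2 members, 1 library group stood apart from the other 5 of its class on the log2 scale. The summed Mki67-low cells of library group 2 had 265 CPM of Pcdhb7, where the median of the 6 groups was 0.021 CPM, and that sum includes the cell with 3027 CPM of Pcdhb7. The summed Mki67-high cells of library group 6 had 7.27 CPM of Pcdhb17, where the median of the 6 groups was 0.107 CPM, and 1 cell of that class reached 10 CPM, at 54.2 CPM. The criterion was applied to the 6 sums of each class for each of the 14 members tested. Chance alone flags about 1 in 20 such sets where values are normally distributed, which sums with many zeros are not. Both values come mostly from single cells.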

How the results depend on the processing

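The comparison of the classes had 6 library groups a class, and for most members few cells in a sum held the gene, so a p above the threshold does not show that the classes were alike. The count of genes called at an adjusted p below 0.01, which was 2, became 6 with RLE factors, 376 with DESeq2, 76 with limma, 1 without the cells of unusual depth, 1 without the astroglial cells, 1 in cells thinned to a common depth, 0 where Mki67-low meant no Mki67 count, 6 at a threshold of 0.05, and 0 to 1 when library groups were left out in turn. Members called were 0 in each of these, except for 1 in DESeq2 (Pcdhb20). No edgeR setting called more than 8 genes at 0.05. RLE moved the median log2 fold change of all genes from -0.18 to 0.09, so that the share of genes higher in Mki67-high cells went from 45.2 to 52.0%. No log2 fold change of a member passed the threshold in the main test, and these signs turned. Cdh2 was 0.25 with RLE, 0.20 with DESeq2, 0.11 with limma, 0.35 without the cells of unusual depth, 0.17 without the astroglial cells, 0.52 with no Mki67 count in the low class, and from -0.70 to 0.55 with library groups left out. Cdh4 was 3.37 with no Mki67 count in the low class. Leaving out library groups gave ranges of -0.63 to 1.75 for Cdh8, -1.59 to 0.38 for Pcdh17 and -2.67 to 1.53 for Pcdhac1, which was 0.31 without the astroglial cells. Pcdhb7 was 0.31 with limma. The cause of these turns was not tested. Of cells with a Pcdhb gene, the share with a single gene was 92.6% at 50 CPM, 90% at 100 CPM, and 73.0 to 85.2% under the other minimums and cell selections, which were added after seeing the data.

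The main test did not pair the 2 sums of a library group. Their deviations correlated weakly, by 0.043 to 0.125, and not all exceeded 0.1. Yet 5 of 6 Mki67-high sums correlated best with the Mki67-low sum of their own group. That of library group 6 correlated by 0.0709 with its own and by 0.0718 with library group 4. The sums of a group may thus share a part that the main test ignores. With the library group as a replicate block, edgeR called 0 genes and limma 114, and 0 members in either. Under the block Cdh11 was -0.37, Pcdh10 -0.89, Pcdh17 0.10 and Pcdhb7 3.47 with edgeR, and Cdh2 0.11 and Pcdhb7 0.31 with limma.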

Other observations

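Most of the 7 astroglial cells held more members than the median cell. They had a count of 6 to 32 members, where the median over all cells was 6 and some other cells held 13. Each astroglial cell had Cdh2, Pcdh9 and Pcdhgc4, 6 had Pcdh10 and 5 had Cdh4, against 76, 11, 92, 25 and 37 of the other 102 cells. At 10 CPM or more, Pcdhgc4 was found in 7 of 7 and in 47 of 102 cells, and Pcdh9 in 3 of 7 and in 5 of 102. The astroglial cells were set apart by genes that are not members, and 2 of them had over 10000 genes detected. The part of the number of genes detected in these counts was not tested.

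Of non-clustered members at 10 CPM or more, Cdh2 was met most often together with Cdh8, in 11 cells, with Cdh4, in 10, and with Cdh10, in 9. As 43 cells had Cdh2 at that level and 18, 14 and 19 had the others, 61.1% of the Cdh8 cells, 71.4% of the Cdh4 cells and 47.4% of the Cdh10 cells also had Cdh2, where 39.4% of all cells did. In turn, 25.6, 23.3 and 20.9% of the Cdh2 cells had these genes. Of the 8 cells with Pcdh9, 7 had Cdh2 (87.5%), which is 16.3% of the Cdh2 cells. These are descriptions with no test.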
